A study of Homo sapiens with 9 samples.

Results

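YAP1, its paralogue WWTR1 (the gene of the protein TAZ), the DNA-binding partner TEAD1 and 7 genes known as their targets or regulators (CTGF, CYR61, ANKRD1, AMOTL2, AXL, LATS2 and AJUBA) were followed across 9 RNA-seq libraries of H1650, an established human non-small cell lung cancer line. The genes were picked by name, and all 10 were among the 16630 genes of the expression table. The cells had been transfected with 20 nM of siRNA and labelled day 3, in 3 groups of 3 libraries. In the siMENA11a group the siRNA was a mix against exon 11a of ENAH, the exon that marks the epithelial isoform hMENA11a. In the siMENA group it was a pool against ENAH, described as specific for hMENA(t). The control group received a non-targeting pool. ENAH encodes hMENA, an actin regulator of the Ena/VASP family. All 9 libraries come from this 1 cell line, and the groups differ by label in the siRNA only. The series' design text calls the libraries of a group biological replicates, with no further account of how cultures were split. The p-values therefore set group differences against the spread between these libraries.

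In the Hippo pathway, the kinases MST1 and MST2 (genes STK4 and STK3) and LATS1 and LATS2, with the adaptors SAV1 and MOB1, phosphorylate YAP and TAZ, which are then held in the cytoplasm or degraded. Unphosphorylated YAP and TAZ enter the nucleus, where they cannot bind DNA themselves and act through TEAD factors. Filamentous actin and cell tension are known to favour nuclear YAP and TAZ. RNA levels of YAP1 and WWTR1 do not report this traffic, which is usually read from target genes such as CTGF, CYR61 and ANKRD1.

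WWTR1 was the gene that changed. It was lower in siMENA cells, at 19.3 ± 2.41 FPKM against 25.5 ± 0.24 FPKM in control cells, and higher in siMENA11a cells than in siMENA cells, at 29.7 ± 1.42 FPKM against 19.3 ± 2.41 FPKM (SD, n = 3 each). FPKM scales fragments by transcript length and library total, so levels of different genes can be set side by side. YAP1, TEAD1 and the 7 other genes passed the test in none of the 3 comparisons. The test was limma on log2(FPKM + 1) over every gene averaging 0.5 FPKM or more, and a gene passed at a Benjamini-Hochberg adjusted p under 0.05. Fold changes are differences on that log2 scale, where low genes appear to change less than they do.

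ENAH itself checked the labels for the gene as a whole, since the values are per gene and do not tell its isoforms apart. Its level was 9.98, 11.0 and 10.3 FPKM in the siMENA11a libraries, 4.43, 5.79 and 5.57 FPKM in the siMENA libraries and 26.1, 30.04 and 26.1 FPKM in the control libraries. That left 38.1% of the control mean in siMENA11a cells and 19.2% in siMENA cells, with no overlap between groups (exact two-sided permutation p = 0.1 for each comparison, the smallest that 3 against 3 libraries allow). All 7 epithelial markers were in the table, with means of 151 FPKM or more (KRT8 highest, at 1446 FPKM), and their summed level was 4233 to 4751 FPKM in siMENA11a, 4944 to 5187 FPKM in siMENA and 5040 to 5392 FPKM in control libraries. The fibroblast markers DCN, LUM and PDGFRB, the leukocyte markers PTPRC, CD3E and ITGAM and the endothelial marker KDR had no row in the table, and the highest of the others were FAP at 7.05 FPKM, CD68 at 11.9 FPKM and TEK at 0.881 FPKM. Some markers moved with siMENA11a. FAP, a fibroblast marker, was at 9.21 ± 1.27 FPKM in siMENA11a, 6.15 ± 0.92 FPKM in siMENA and 5.78 ± 1.21 FPKM in control cells, and passed against control (0.60, limma adjusted p = 0.0165) and against siMENA (0.51, limma adjusted p = 0.0179). TEK was 0.43 higher on the log2 scale in siMENA11a than in siMENA cells (limma adjusted p = 0.00664). Of the 7 epithelial markers, CDH1, KRT8 and KRT18 were lower in siMENA11a than in control cells, by log2 fold changes of -0.42, -0.35 and -0.40, and KRT7 was lower in siMENA than in control cells (-0.41). The part of these markers in the results for the 10 genes and the lists was not tested. These are bulk libraries, in which fewer cells of a kind and less RNA per cell cannot be told apart.

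TEAD factors bind the hexamer GGAATG, read as CATTCC on the other strand. Among the RefSeq promoter windows taken here, the 250 bases before a start site in GRCh38.p14, 11.9% of 35116 windows hold it at least 1 time on either strand, 0.928% at least 2 times and 0.0797% at least 3 times. Windows matched for 8 of the 10 genes, all but TEAD1 and CYR61, with CTGF under its current symbol CCN2. Of the 8, 6 hold the hexamer in at least 1 window. The 8 genes have 12 windows in all, so this count of genes cannot be set against the 11.9% of windows. CTGF and ANKRD1 are shown because they are the textbook readouts of TEAD and hold it repeatedly, and WWTR1 because it is the gene that changed. Capitals mark the hexamer. The CTGF window is chr6:131951373-131951622, minus strand, with starts of the hexamer 169, 104 and 95 bases upstream. The ANKRD1 window is chr10:90921088-90921337, minus strand, with hexamers 220 and 128 bases upstream. The WWTR1 window is chr3:149703274-149703523, minus strand, before the first of 2 annotated starts, and holds none.

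CTGF: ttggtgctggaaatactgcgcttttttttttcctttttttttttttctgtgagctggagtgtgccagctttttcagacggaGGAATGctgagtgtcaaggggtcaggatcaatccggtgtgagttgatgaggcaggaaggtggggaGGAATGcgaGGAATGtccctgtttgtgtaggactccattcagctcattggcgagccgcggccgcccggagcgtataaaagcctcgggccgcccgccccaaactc
ANKRD1: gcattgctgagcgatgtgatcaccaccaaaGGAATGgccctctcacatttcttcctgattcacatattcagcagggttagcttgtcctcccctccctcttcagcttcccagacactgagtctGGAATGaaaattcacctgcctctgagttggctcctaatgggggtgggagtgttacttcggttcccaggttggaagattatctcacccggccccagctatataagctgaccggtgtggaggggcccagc
WWTR1: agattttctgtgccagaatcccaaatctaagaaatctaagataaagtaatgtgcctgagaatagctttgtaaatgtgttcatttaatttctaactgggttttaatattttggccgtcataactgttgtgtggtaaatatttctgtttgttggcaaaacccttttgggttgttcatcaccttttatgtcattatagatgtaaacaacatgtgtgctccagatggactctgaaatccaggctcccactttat

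YAP1 has 1 hexamer 162 bases upstream of its start, and AMOTL2, AXL and AJUBA have 1 each before the second of their 2 starts, at 69, 212 and 59 bases. Neither WWTR1 start nor the LATS2 start has one. A match describes the letters of these windows and is not a measurement of binding, and enhancers were not searched.

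In control cells the order of the levels was YAP1 at 67.3 ± 2.33 FPKM, AMOTL2 at 56.9 ± 2.67, CYR61 at 32.4 ± 2.06, WWTR1 at 25.5 ± 0.24, TEAD1 at 16.8 ± 1.18, AJUBA at 10.6 ± 1.01, AXL at 10.4 ± 4.11, CTGF at 7.24 ± 0.34, LATS2 at 5.97 ± 0.30 and ANKRD1 at 0.754 ± 0.314 FPKM (SD, n = 3 each). Neighbours in this order did not overlap between libraries, except that AXL overlapped both AJUBA and CTGF. ANKRD1, a nuclear ankyrin-repeat protein of muscle and a strong YAP target elsewhere, stood near the level at which genes were left out.

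**Figure D1:**
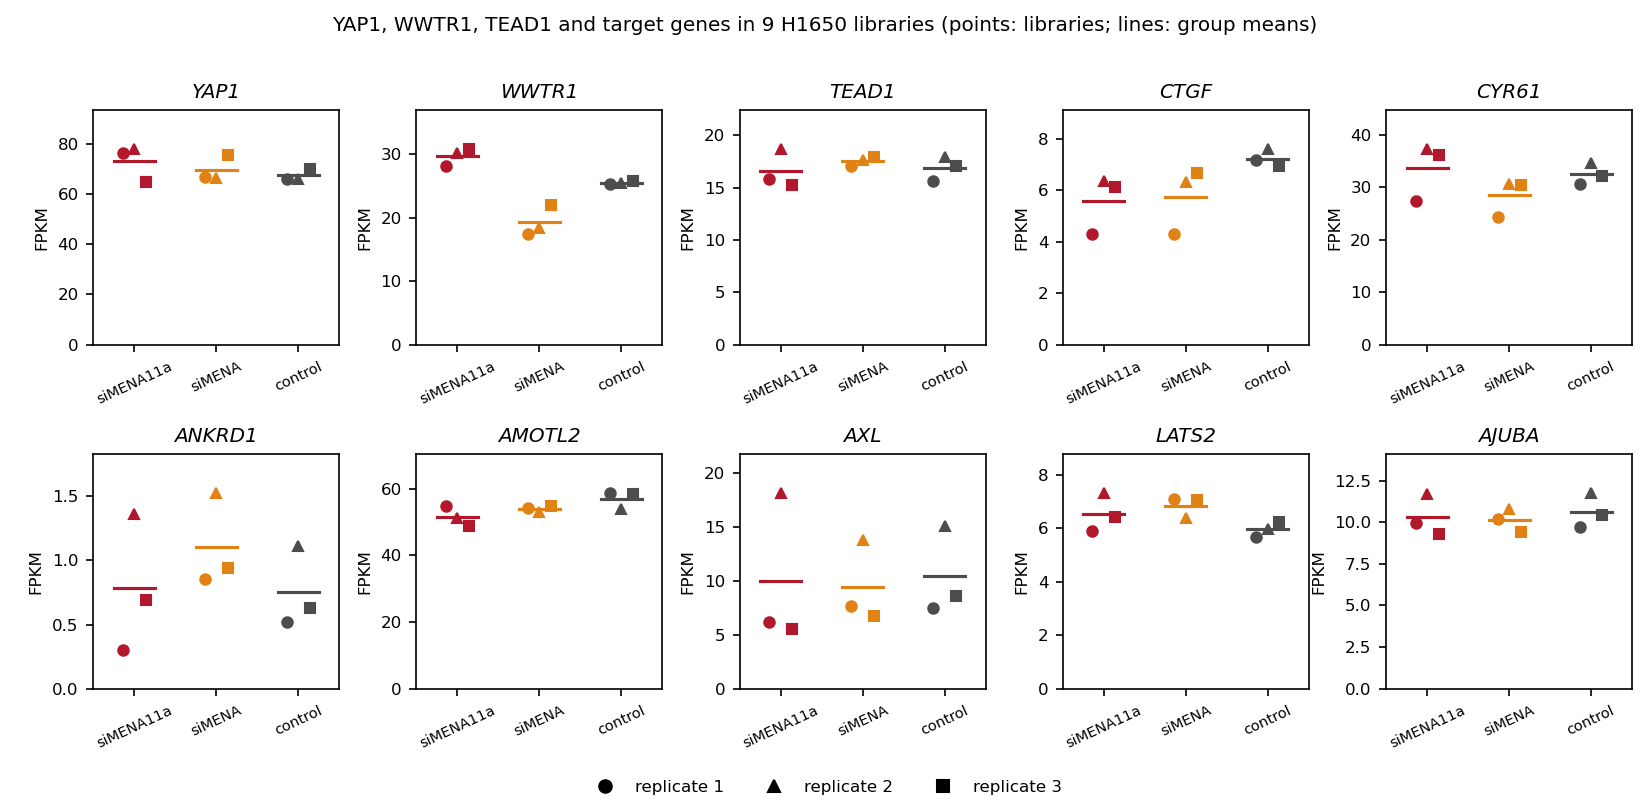
FPKM of the 10 genes in 9 H1650 libraries, with siMENA11a, siMENA and control from left to right in each panel. Points are libraries, with a marker shape for each replicate number, and short lines are group means; the siMENA libraries of WWTR1 lie at 17.4 to 22.01 FPKM, under all control libraries at 25.3 to 25.8 FPKM.

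Against control, siMENA changed 1 of the 10 genes, WWTR1, which was lower. Over all 13273 genes tested, 18.6% passed in this comparison, 10.3% higher and 8.24% lower, so 1 of 10 is no larger a share than the background. The median log2 fold change of the 10 genes was -0.07, against 0.04 over all genes. WWTR1, CTGF and LATS2 were the 3 genes whose siMENA and control libraries did not overlap, a pattern that 40.1% of all genes showed.

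siMENA11a against control gave 0 of 10 calls by limma, where 19.5% of all genes passed, 8.16% higher and 11.3% lower. At an unadjusted p under 0.05 there were 2 of the 10, WWTR1 and AMOTL2, and no other tool was run. The median log2 fold change of the 10 was -0.01, and over all genes it was -0.01 too. Groups did not overlap for 2 of the 10, WWTR1 and CTGF, and for 36.7% of all genes.

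siMENA11a against siMENA gave 1 of 10, WWTR1, which was higher, while 36.6% of all genes passed, 14.4% higher and 22.2% lower. The median log2 fold change was -0.04 for the 10 genes and -0.05 over all genes, and WWTR1 was the single gene of the 10 with no overlap, a pattern that 47.8% of all genes showed. The comparison shares the siMENA libraries with the siMENA fall, so its WWTR1 call is not a separate piece of evidence for that fall.

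The split of calls over all genes depends on scaling. Of the genes that passed between siMENA and control 44.4% were lower, against 56.1% with median-ratio scaling, and between siMENA11a and siMENA 60.6% were lower, against 49.6%.

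The coactivators were measured as follows. YAP1 was 76.4, 77.7 and 64.9 FPKM in siMENA11a, 66.8, 66.2 and 75.5 FPKM in siMENA and 66.0, 66.0 and 70.0 FPKM in control libraries. The 3 groups overlap, and the log2 fold changes were 0.11 for siMENA11a and 0.04 for siMENA against control, with 95% intervals of -0.06 to 0.29 and -0.13 to 0.22. WWTR1 was 28.1, 30.2 and 30.8 FPKM in siMENA11a, 17.4, 18.4 and 22.01 FPKM in siMENA and 25.3, 25.4 and 25.8 FPKM in control libraries. Every siMENA library lay under every control library, and every siMENA11a library over every control library.

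WWTR1 in siMENA against control had a log2 fold change of -0.39 (SE 0.08, limma adjusted p = 0.00837), and same-numbered pairs of libraries differed by -0.52, -0.44 and -0.22. The call held when any 1 of the 9 libraries was left out. It was lost when the replicate 2 libraries of all 3 groups were left out, with a log2 fold change of -0.37 (adjusted p = 0.0634, limma). In siMENA11a against siMENA the log2 fold change was 0.60 (SE 0.08, limma adjusted p = 0.000356). In siMENA11a against control it was 0.21 (SE 0.08), which missed the threshold at limma adjusted p = 0.0896, and passed it with these 2 groups alone (limma adjusted p = 0.0411) and without siMENA replicate 3 (limma adjusted p = 0.0266).

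The ratio of WWTR1 to YAP1 within a library does not depend on how libraries are scaled. It was 0.368, 0.389 and 0.475 in siMENA11a, 0.261, 0.279 and 0.292 in siMENA and 0.384, 0.385 and 0.368 in control libraries. The siMENA ratios lay under all others, with means of 0.277 in siMENA and 0.379 in control cells (exact two-sided permutation p = 0.1, the smallest possible). The siMENA11a and control ratios overlapped.

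WWTR1 overlaps the antisense gene WWTR1-AS1 in GENCODE v29. The antisense gene was at 0.250 to 0.542 FPKM in siMENA11a, 0.290 to 0.388 FPKM in siMENA and 0.425 to 0.734 FPKM in control libraries, far below WWTR1. No source used here states whether strand was used in counting. The AJUBA locus likewise overlaps another protein-coding annotation, AL132780.3, on its own strand, and its value may include reads shared with it.

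A pair of overlapping 7-base words, CAGAATA and AGAATAA, had been picked in earlier work on these same data from the 3' UTRs of genes that fell with siMENA, so they are no independent evidence here. In the longest annotated 3' UTR, 3 of the 10 genes carry a word, WWTR1, YAP1 and TEAD1, against 26.8% of 11360 genes searched. These 3 have the longest UTRs of the 10, at 3570, 3483 and 7261 bases, and the share is not matched for length. WWTR1 carries CAGAATA at positions 269 and 2614 of 3570, counted from the 5′ end of the UTR in GENCODE v29, and AGAATAA overlaps the second at 2615. The sites in WWTR1 and the site in YAP1 at position 1797 are shown because 1 of the genes fell and the other did not, with the word in capitals.

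WWTR1 at 269: attgattatgCAGAATActtttctctt
WWTR1 at 2614: aatattttttCAGAATAaaatatggac
YAP1 at 1797: caatgtttctAGAATAAgcccttattt

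No siRNA sequence stands in the sources used here, and the part of such words in the WWTR1 values was not tested.

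TEAD1, the DNA-binding partner, was 15.8, 18.7 and 15.2 FPKM in siMENA11a, 17.0, 17.6 and 17.9 FPKM in siMENA and 15.6, 17.9 and 17.0 FPKM in control libraries. The groups overlap, and the log2 fold changes against control were -0.03 for siMENA11a and 0.05 for siMENA. The other TEAD factors had these levels in control cells, TEAD2 at 6.89 ± 1.64 FPKM, TEAD3 at 10.1 ± 1.48 FPKM and TEAD4 at 8.92 ± 0.82 FPKM (SD, n = 3 each). TEAD4 was lower in siMENA11a than in siMENA cells, at 8.22 ± 1.25 FPKM against 11.5 ± 0.14 FPKM, with a log2 fold change of -0.45 (limma adjusted p = 0.00616).

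CTGF and CYR61 encode secreted matricellular proteins of the CCN family. CTGF was 4.29, 6.36 and 6.15 FPKM in siMENA11a, 4.29, 6.32 and 6.66 FPKM in siMENA and 7.19, 7.60 and 6.94 FPKM in control libraries. Every knockdown library lay under every control library, and replicate 1 was the lowest of both knockdown groups. The log2 fold changes of -0.34 for siMENA11a and -0.30 for siMENA had SE 0.16 each and missed the threshold, with limma adjusted p of 0.161 and 0.202. Their 95% intervals ran from -0.68 to 0.01 and from -0.65 to 0.04.

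CYR61 was 27.4, 37.2 and 36.1 FPKM in siMENA11a, 24.3, 30.6 and 30.3 FPKM in siMENA and 30.5, 34.6 and 32.1 FPKM in control libraries. Replicate 1 was again the lowest in each group, and the groups overlap. Against siMENA the siMENA11a log2 fold change was 0.23 (SE 0.12, limma adjusted p = 0.169), and same-numbered libraries differed by 0.17, 0.27 and 0.24, all higher in siMENA11a. Without siMENA11a replicate 1 it was 0.36 (adjusted p = 0.0274, limma). Replicate 1 was also the shallowest library of each group by relative depth, at 1.15 in siMENA11a and 1.16 in siMENA in units of control replicate 1, and the part of depth in the CTGF and CYR61 values was not tested.

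AMOTL2 and LATS2 are targets that also restrain YAP, AMOTL2 as a junction protein that binds it and LATS2 as the kinase that phosphorylates it. AMOTL2 was 54.9, 51.1 and 48.8 FPKM in siMENA11a, 54.1, 53.1 and 54.8 FPKM in siMENA and 58.6, 53.9 and 58.4 FPKM in control libraries. Its siMENA11a difference from control was -0.14 on the log2 scale (SE 0.06, limma adjusted p = 0.117). LATS2 was 5.92, 7.31 and 6.45 FPKM in siMENA11a, 7.09, 6.40 and 7.08 FPKM in siMENA and 5.67, 5.97 and 6.26 FPKM in control libraries. All siMENA libraries of LATS2 lay above all control libraries, with a log2 fold change of 0.17 (SE 0.08, limma adjusted p = 0.164).

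**Figure D2:**
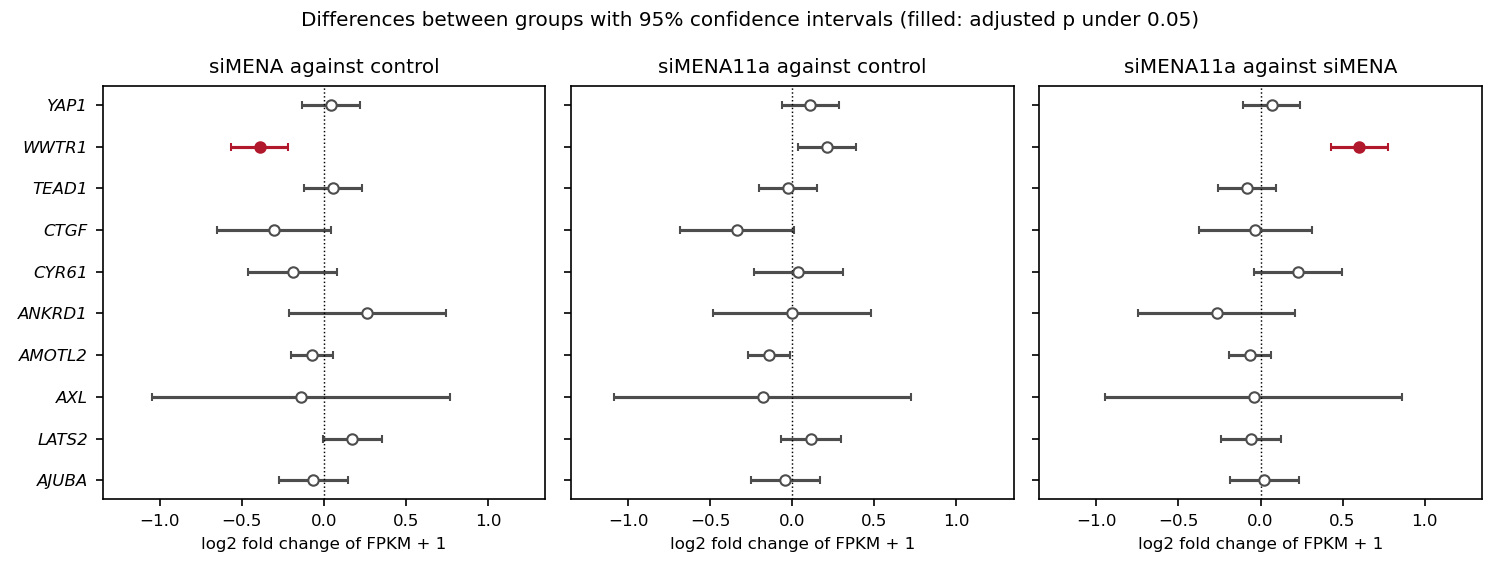
Log2 fold change on the log2(FPKM + 1) scale with 95% intervals for the 10 genes in the 3 comparisons, siMENA11a and siMENA against control and siMENA11a against siMENA. WWTR1 is the gene whose intervals lie away from 0 in siMENA against control (-0.39) and in siMENA11a against siMENA (0.60); the AXL interval is the widest. In siMENA11a against control the WWTR1 and AMOTL2 intervals also exclude 0, with adjusted p over 0.05.

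AXL, a receptor tyrosine kinase, ANKRD1 and AJUBA, a LIM protein that binds LATS kinases, varied with the replicate number, and none passed the test between siRNA groups with all 9 libraries. AXL was 6.22, 18.1 and 5.56 FPKM in siMENA11a, 7.67, 13.8 and 6.71 FPKM in siMENA and 7.50, 15.1 and 8.62 FPKM in control libraries. In each group replicate 2 was the highest, at 13.8 to 18.1 FPKM against 5.56 to 8.62 FPKM in the other 6 libraries. Its log2 fold changes against control were -0.18 for siMENA11a and -0.14 for siMENA, with SE 0.41 each. The intervals of -1.09 to 0.72 and -1.05 to 0.77 leave room for either direction. They come from the fit without the replicate number, so they include the spread of the replicate 2 step. Same-numbered libraries differed from control by 0.03, -0.13 and -0.32 in siMENA and by -0.24, 0.24 and -0.55 in siMENA11a.

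ANKRD1 was 0.300, 1.36 and 0.694 FPKM in siMENA11a, 0.852, 1.52 and 0.943 FPKM in siMENA and 0.520, 1.11 and 0.631 FPKM in control libraries. Replicate 2 was again highest in each group. Its log2 fold changes against control were 0.00 for siMENA11a and 0.26 for siMENA (SE 0.22 each). For siMENA the limma adjusted p was 0.426 in the fit by group, which leaves the replicate number out. Same-numbered siMENA and control libraries differed by 0.29, 0.26 and 0.25, all higher in siMENA. Over the alternative settings on repaired values, the limma adjusted p of ANKRD1 in this comparison ran from 0.0955 to 0.757. AJUBA was 9.94, 11.7 and 9.29 FPKM in siMENA11a, 10.2, 10.8 and 9.39 FPKM in siMENA and 9.73, 11.7 and 10.4 FPKM in control libraries, with replicate 2 highest in each. All replicate 2 libraries stood on 1 side of all 6 others in these 3 of the 10 genes, and in 610 of the 13273 genes tested (4.60%). On the log2 scale AXL was 1.05 higher in the replicate 2 libraries than in the rest, a difference at percentile 99.8 of all genes by size, and ANKRD1 was 0.50 higher, at percentile 98.5. AJUBA was 0.20 higher, at percentile 85.5, a step close in size to the 0.18 of CTGF and of CYR61 (percentiles 83.7 and 83.2). In YAP1, WWTR1, TEAD1 and the CCN genes the replicate 2 libraries overlapped the others.

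The same replicate 2 libraries had a summed fibroblast marker level of 9.78 to 13.2 FPKM against 5.45 to 9.37 FPKM in the other 6, from the 5 of 8 markers in the table (COL3A1 at 1.90, 3.22 and 2.24 FPKM in the siMENA11a, siMENA and control replicate 2 libraries). Leukocyte markers summed to 16.7 to 20.2 FPKM against 13.7 to 16.4 FPKM, from 3 of 7 markers, and endothelial markers to 0.921 to 1.41 FPKM against 0.809 to 1.66 FPKM. Their part in the AXL and ANKRD1 values was not tested. Without the replicate 2 libraries, AXL in siMENA11a against control had a log2 fold change of -0.39 (limma adjusted p = 0.0482), from 2 libraries a group.

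**Figure D3:**
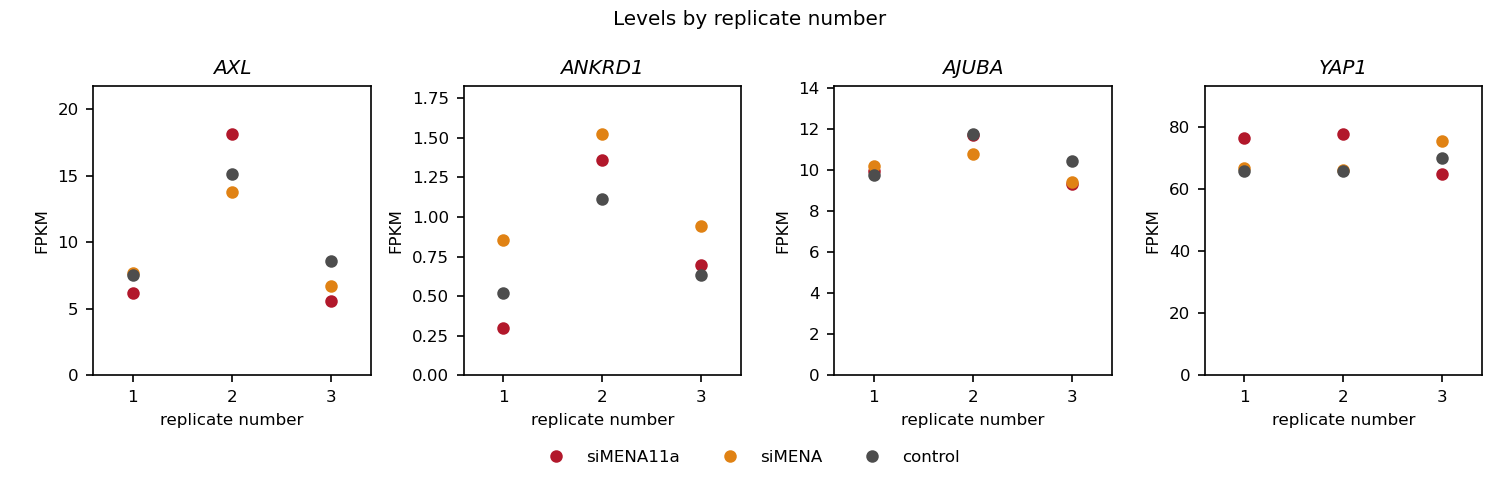
FPKM of AXL, ANKRD1, AJUBA and YAP1 against replicate number, coloured for siMENA11a, siMENA and control; points are single libraries. Replicate 2 is highest in each group for AXL (13.8 to 18.1 FPKM against 5.56 to 8.62 FPKM elsewhere), ANKRD1 and AJUBA, whereas YAP1 shows no such step.

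Other genes of the pathway and its neighbours were counted by list, to be read against the shares of all genes that passed: 18.6% in siMENA against control (10.3% higher, 8.24% lower), 19.5% in siMENA11a against control (8.16% higher, 11.3% lower) and 36.6% in siMENA11a against siMENA (14.4% higher, 22.2% lower). Of the calls in these lists, 9 of 19 in siMENA against control, 10 of 22 in siMENA11a against control and 27 of 38 in siMENA11a against siMENA held when any 1 of the 9 libraries was left out, and only genes of that kind are named.

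Among 6 other TEAD and Vestigial-like genes, 2 were higher with siMENA, 2 with siMENA11a, and 1 rose and 1 fell in siMENA11a against siMENA. VGLL4, a cofactor known to compete with YAP for TEAD, rose by 0.24 with siMENA and by 0.35 with siMENA11a on the log2 scale; the siMENA call missed at adjusted p = 0.0545 (limma) without the replicate 2 libraries. VGLL3 rose by 0.43 with siMENA11a against control, to 17.0 ± 1.11 FPKM against 12.4 ± 0.98 FPKM (SD, n = 3 each).

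Among 11 core Hippo kinases and adaptors, 1 rose and 1 fell with siMENA, while 5 rose and 0 fell with siMENA11a against control, with medians of 0.04 and 0.09 against 0.04 and -0.01 over all genes. Against siMENA, 4 rose and 1 fell in siMENA11a. The adaptor SAV1 rose to 13.1 ± 0.89 FPKM in siMENA11a against 9.98 ± 0.37 FPKM in control cells, a log2 fold change of 0.36 (limma adjusted p = 0.00451). MOB1A, which activates LATS kinases, was at 202.8 ± 4.17 FPKM in siMENA11a against 170.2 ± 3.54 FPKM in control cells (0.25, adjusted p = 0.00985, limma), a call lost without the replicate 2 libraries (adjusted p = 0.0575, limma). TAOK3, an upstream kinase, rose by 0.34.

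Among 17 upstream scaffolds and YAP-binding inhibitors, 2 rose and 2 fell with siMENA, 1 rose with siMENA11a against control, and 3 rose and 2 fell against siMENA. WWC2, a KIBRA-family scaffold that promotes LATS activity, fell to 17.5 ± 0.92 FPKM in siMENA cells against 26.2 ± 1.90 FPKM in control cells, a log2 fold change of -0.55 (limma adjusted p = 0.000549), and was 0.63 higher in siMENA11a than in siMENA cells. Its 3' UTR holds the siMENA words 4 times. The words were picked from genes that fell with siMENA in these same data, so this is no independent evidence. Of all genes searched, 26.8% carry a word. Among genes named in the lists below that fell with siMENA, LPP and TGFB2 carry a word and TPM1 carries none. The share is not matched for UTR length, which is 5048 bases for WWC2, 16192 for LPP, 3257 for TGFB2 and 3493 for TPM1.

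Of 11 LIM proteins that bind LATS and phosphatase subunits, 3 rose and 2 fell with siMENA, 0 rose and 2 fell with siMENA11a, and 2 rose and 7 fell in siMENA11a against siMENA. PPP2R1A, a scaffold subunit of the phosphatase PP2A, was at 117.6 ± 4.59 FPKM in siMENA11a and 155.2 ± 1.01 FPKM in siMENA cells (-0.40, limma adjusted p = 0.000352). Control cells lay between, at 134.0 ± 5.26 FPKM. Against control siMENA11a was lower and siMENA higher, but both calls were lost when some single libraries were left out. MOB4, a subunit of the STRIPAK phosphatase complex, was at 25.4 ± 1.76 FPKM in siMENA11a and 31.8 ± 1.10 FPKM in siMENA cells (-0.32, limma adjusted p = 0.00406). It was at 28.1 ± 1.52 FPKM in control cells, between these groups, and neither passed against control. TRIP6, a LIM protein known to inhibit LATS, rose to 36.3 ± 3.65 FPKM in siMENA cells against 24.7 ± 2.23 FPKM in control cells (0.54, limma adjusted p = 0.00331). LPP, a focal-adhesion LIM protein, was 0.67 higher on the log2 scale in siMENA11a than in siMENA cells, and in siMENA cells lower than in control cells by a log2 fold change of -0.51, a call lost without the replicate 2 libraries (adjusted p = 0.0669, limma).

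Of 16 other published YAP/TAZ target genes, 2 rose and 1 fell with siMENA, 1 rose and 2 fell with siMENA11a, and 3 rose and 1 fell between siMENA11a and siMENA. NT5E, the ecto-nucleotidase CD73, was at 3.65 ± 0.37 FPKM in siMENA11a and 7.23 ± 0.77 FPKM in siMENA cells, a log2 fold change of -0.82 (limma adjusted p = 0.000208). Control cells lay between, at 5.24 ± 0.53 FPKM. Against control siMENA11a was lower and siMENA higher, but both calls were lost when some single libraries were left out. TGFB2, a TGF-beta ligand, fell by 0.46 with siMENA and F3, the coagulation receptor tissue factor, was 0.44 higher in siMENA11a than in siMENA cells. F3 was at 22.8 ± 2.13 FPKM in siMENA11a, 16.5 ± 0.47 FPKM in siMENA and 18.4 ± 2.28 FPKM in control cells.

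Of 8 AP-1 subunits, which bind with TEAD at many enhancers, 1 rose with siMENA and 3 with siMENA11a, and 0 fell in either, while 2 rose and 1 fell in siMENA11a against siMENA. The subunit that fell there was JUND, at 58.6 ± 13.0 FPKM in siMENA11a and 87.8 ± 9.33 FPKM in siMENA cells (-0.59, limma adjusted p = 0.00973). JUND was at 69.8 ± 2.95 FPKM in control cells, between these groups, and neither passed against control. JUN was at 24.6 ± 1.82 FPKM in siMENA11a, 26.9 ± 0.86 FPKM in siMENA and 19.0 ± 1.09 FPKM in control cells, with log2 fold changes of 0.36 and 0.49 against control (limma adjusted p = 0.00545 and 0.00126).

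Of 18 actin, MRTF and SRF genes, 0 rose and 1 fell with siMENA, 0 rose and 4 fell with siMENA11a, and 1 rose and 7 fell in siMENA11a against siMENA. Of the 4, only CNN2 held its call when any 1 library was left out (-0.52, limma adjusted p = 0.00382). Of the 7, only CNN2, VCL, MYL9 and SRF did. TPM1, tropomyosin, fell to 75.03 ± 2.55 FPKM in siMENA against 147.3 ± 7.69 FPKM in control cells (-0.96, limma adjusted p = 1.67e-05). MYL9, myosin light chain, was at 8.44 ± 5.99 FPKM in siMENA11a and 39.5 ± 12.2 FPKM in siMENA cells (-2.25, limma adjusted p = 0.00365). Its replicate 2 library was the highest in each group, at 15.2 FPKM in siMENA11a, 53.6 FPKM in siMENA and 41.9 FPKM in control cells.

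Of 12 TGF-beta genes, 2 fell with siMENA, 2 with siMENA11a, and 2 rose and 1 fell in siMENA11a against siMENA. TGFB2 is in this list and in the YAP/TAZ target list. Its fall with siMENA and its rise in siMENA11a against siMENA are therefore counted in both. TGFBR2, the type II receptor, fell to 42.6 ± 2.09 FPKM in siMENA11a against 81.1 ± 5.08 FPKM in control cells (-0.91, limma adjusted p = 6.91e-05).

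**Figure D4:**
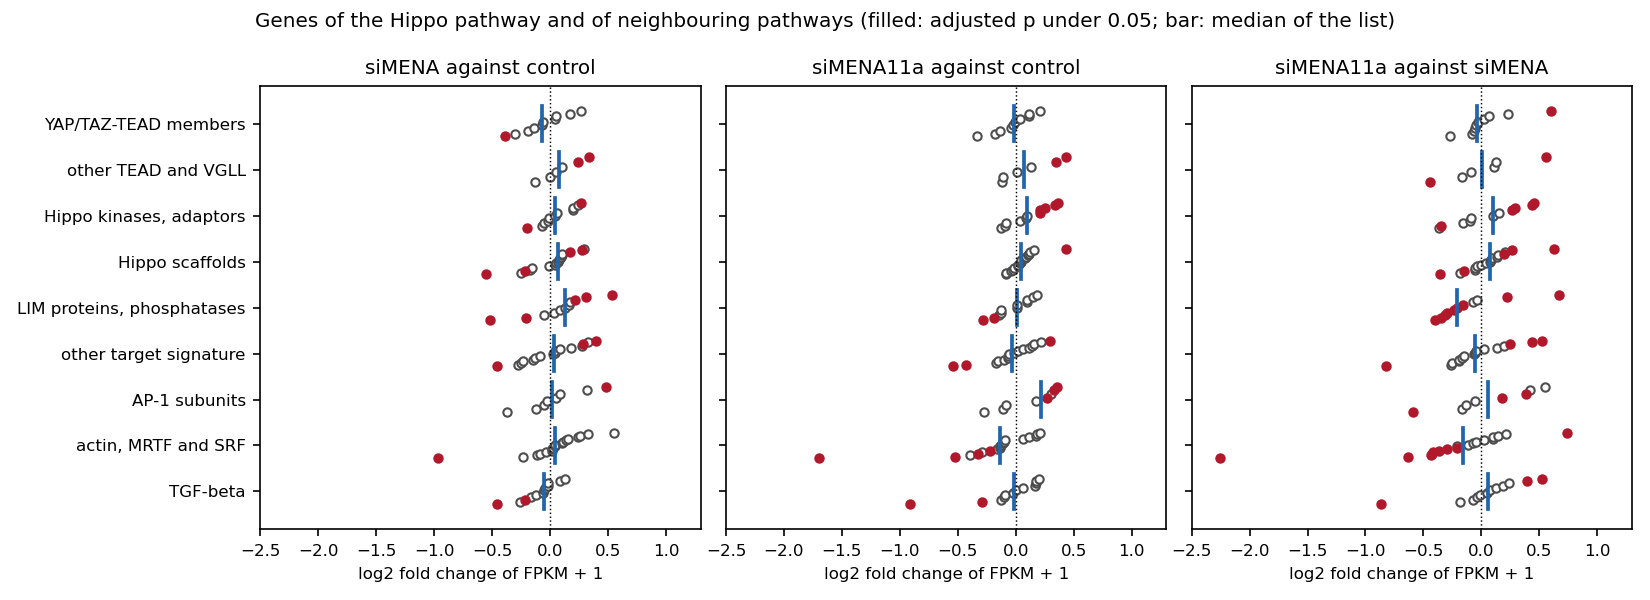
Log2 fold change of each tested gene of the members and of 8 pathway lists, in the 3 comparisons; filled red points passed adjusted p under 0.05, open points did not, and blue lines are list medians. The red points of the actin list lie mostly below 0 in siMENA11a against siMENA, where 7 fell and 1 rose.

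The genes whose pattern over the 9 libraries was most like that of WWTR1 were ERCC4, CALCOCO2 and ATXN10, with root mean square differences of 0.0606, 0.0641 and 0.0683 in centred log2(FPKM + 1), against a WWTR1 SD of 0.264. For AMOTL2 they were GPR107, SCRN1 and ZADH2 (0.0303, 0.0337 and 0.0358, SD 0.0772), and for CTGF MYBL1, RAB3IL1 and PAPL (0.110, 0.137 and 0.140, SD 0.241). Each was picked as the nearest among 12374 genes, and the measure is a description.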

How the data were processed

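RNA was extracted, depleted of ribosomal RNA and made into stranded paired-end libraries, per the labels' protocols. The submitters' processing notes name hg19. No source used here names the aligner, quantification tool or annotation. The authors deposited 1 table of FPKM values for 16630 genes. Part of it had lost its decimal point: 0 values had exactly 3 decimals, while 54179 had 4. Whole numbers over 50 times their gene's decimal values were divided by 1000, 11524 values (7.91%), including values of YAP1, WWTR1, TEAD1 and LATS2. None of the WWTR1 values in siMENA and control was divided. Genes lacking any value (1286) were dropped. Absolute depth is unknown. From steps between very low values, depth relative to control replicate 1 was 1.15 to 1.36 for siMENA11a, 1.16 to 1.45 for siMENA and 1 to 1.58 for control.

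Groups came from the labels. Genes averaging 0.5 FPKM or more (13273) were compared as log2(FPKM + 1) in limma 3.58.1, R 4.3.3, with 1 fit over 9 libraries, a mean-variance trend and 6 residual degrees of freedom. The code was tested on simulated data. P-values were adjusted over all genes by Benjamini-Hochberg. The members and lists were chosen with earlier results of these data known. Up to 4 passing genes with the largest change were named per list and comparison, further limited, after the values were seen, to those whose call held when any 1 library was left out. Likeness was computed for the 3 members with the smallest F-test p, over genes of at least 1 FPKM. Alternatives were another pseudocount, filters, scalings, a replicate block, 2 groups only, no trend, no repair, and libraries left out.

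Groups share replicate numbers in the labels. Deviations from group means correlated between same-numbered siMENA and control libraries at 0.124, 0.378 and 0.196, which counts as pairing by the rule used. The main fit held the group only, so its SEs, intervals and p-values count spread shared by same-numbered libraries as error. With the replicate number as a block, the limma adjusted p in siMENA against control was 0.00407 for WWTR1 and 0.0646 for CYR61.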

Additional observations from a re-analysis of the deposited data

How the results depend on the processing

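The WWTR1 fall in siMENA against control kept its direction and call under every alternative in which it was tested on repaired values, other than the added run, with log2 fold changes of -0.49 to -0.33 in all. That run, without the replicate 2 libraries of all groups and chosen after seeing the data, left 0 of 10 members called in that comparison, 1 in siMENA11a against control, and 1610 and 1616 genes. Same-numbered libraries correlated at 0.206, 0.425 and -0.0302 between siMENA11a and control and at 0.0863, 0.309 and 0.0203 between siMENA11a and siMENA. In both, replicate 2 correlated best with replicate 2 and siMENA11a replicate 3 with replicate 1, so the numbers do not count as pairs by the rule used (each over 0.1), although the replicate 2 libraries of all groups deviated together. With the replicate number as a block 2 members passed in siMENA11a against control (WWTR1 and CTGF, adjusted p = 0.0422 and 0.0493, limma) and 2 in siMENA11a against siMENA (WWTR1, and CYR61 at adjusted p = 0.0216, limma), and 1 with the 2 compared groups alone in siMENA11a against control; the siMENA against control member call did not change with the block. Genes called with the block numbered 3149, 3431 and 5648, in the order siMENA and siMENA11a each over control, then siMENA11a over siMENA.

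Leaving out genes with a repaired value removed WWTR1 and 3 other members, so its calls could not be tested there. Of the 6 members left, 0 were called in siMENA against control and 0 in siMENA11a against siMENA, and 1293, 1362 and 2716 of 8461 genes in the 3 comparisons. With values as deposited 0 and 0 members and 543, 556 and 1703 genes passed, and fold changes then follow the lost decimal points: in siMENA against control CTNNA1 -3.15, WTIP -6.29 and TRIP6 -6.07; in siMENA11a against control VGLL3 -2.85, F3 -3.00 and TGFBR1 3.01; in siMENA11a against siMENA VGLL3 -2.72, STK3 -3.04, NF2 -3.04, CTNNA1 3.17, F3 -2.85, ACTB 2.90 and CNN2 2.68.

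Leaving out 1 library in turn gave 1343 to 2903 genes in siMENA against control (1343 without siMENA replicate 1, 1570 without siMENA replicate 2, 1555 without control replicate 1 and 1445 without control replicate 3), 1500 to 2484 in siMENA11a against control (1500 without control replicate 3) and 3624 to 4820 in siMENA11a against siMENA. Members called ran over 1 to 1, 0 to 1 and 1 to 2. Groups of 3 and unknown depth limit what small differences of low genes such as ANKRD1 can show.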
